A study of Mus musculus with 5 samples.

Results

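The granins are the acidic proteins packed with peptide hormones into the dense-core secretory granules of endocrine and neural cells. The 5 genes described here are Chga, Chgb, Scg2, Scg3 and Vgf, taken by symbol out of 36529 gene rows, and all 5 were present in each of the 3 deposited tables. They were followed by cell type, by cluster and by library in mouse single-cell RNA-seq (10x Genomics 3′ chemistry, version V2), which counts captured transcripts as unique molecular identifiers (UMIs). The groups were pancreatic tumors of Gcgr homozygous knockout mice (3 libraries, called tumor A, B and C), islets of a Gcgr homozygous knockout (1 library) and islets of a Gcgr heterozygote (1 library). Gcgr encodes the glucagon receptor, so every library carries at least 1 knockout allele and no wild-type islets were analysed here. All animals were kept on standard chow with no treatment; age, strain and sex are not given in the labels, and the labels do not say whether the tumor libraries came from separate animals.

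Granins aggregate at low pH and high calcium in the trans-Golgi network, a step that helps hormone precursors enter forming granules, and most are themselves cut into bioactive peptides. Chga (chromogranin A) is the precursor of vasostatin, pancreastatin and catestatin, and its protein is the circulating marker used clinically for neuroendocrine tumors. Chgb (chromogranin B) is its closest relative in granule formation. Scg2 (secretogranin II) yields secretoneurin. Scg3 (secretogranin III) binds cholesterol-rich granule membrane and holds chromogranin A there. Vgf, first found as a gene induced by nerve growth factor, encodes a precursor of several secreted peptides and responds to neurotrophins and cyclic AMP.

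Cyclic AMP signaling is the pathway through which the glucagon receptor acts, and cyclic AMP response elements are a known feature of chromogranin promoters, so the stretch before each start site is shown with that element in capitals. The set of RefSeq promoter sequences of build GRCm38.p6 used here held 4 of the 5 genes. Vgf was absent from that set, so its promoter was not searched. Each line gives the 120 bases before the start, on the gene's own strand.
Chga, chr12:102554821-102554940, plus strand: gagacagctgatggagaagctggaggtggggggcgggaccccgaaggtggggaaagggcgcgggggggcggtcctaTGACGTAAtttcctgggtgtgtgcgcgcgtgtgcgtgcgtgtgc
Chgb, chr2:132781522-132781641, plus strand: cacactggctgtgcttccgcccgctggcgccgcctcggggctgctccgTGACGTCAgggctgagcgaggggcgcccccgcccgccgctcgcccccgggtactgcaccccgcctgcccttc
Scg2, chr1:79440027-79440146, minus strand: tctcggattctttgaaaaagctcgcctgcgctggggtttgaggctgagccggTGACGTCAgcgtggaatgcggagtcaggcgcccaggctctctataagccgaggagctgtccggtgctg
Scg3, chr9:75684057-75684176, minus strand: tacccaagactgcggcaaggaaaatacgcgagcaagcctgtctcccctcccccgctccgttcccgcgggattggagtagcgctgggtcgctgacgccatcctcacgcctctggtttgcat
The full element TGACGTCA was found in Chgb and Scg2, beginning at positions -72 and -68 from the start. Chga held the relaxed form TGACGTNA at position -44, and Scg3 held neither. Searched on both strands of windows of 300 bases (250 before and 50 after the start), the full element was present in 1.79% of 32851 promoters and the relaxed form, which includes it, in 2.93%. The GC box GGGCGG was present in the windows of Chga and Chgb and in 35.7% of all promoters. A match is a description of the letters and not a binding site. The genes lie on different chromosomes of GRCm38: Chga on chromosome 12 (102554941-102565027), Chgb on 2 (132781642-132795079), Scg2 on 1 (79434366-79440026), Scg3 on 9 (75643366-75685959) and Vgf on 5 (137025301-137033351). The Scg3 start used for its promoter lies inside that gene range.

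The libraries held 495, 846 and 1084 kept cells in tumor A, B and C, 2843 in homozygous islets and 1326 in heterozygous islets. Total UMIs per library lay between 10508498 and 34101553, and the median per kept cell between 10961 and 26091.5. Cell names hold the barcode and the library name, so their uniqueness says nothing about barcodes shared between libraries. The genotype check held for homozygous islets: over all kept cells Gcgr had 0 UMIs there, against 137 UMIs in heterozygous islets. The count of 0 allows up to 0.108 UMIs per 1000000. Gcgr had 0, 1 and 3 UMIs in tumor A, B and C. The heterozygous count covers all cell types, among them 686 beta cells, and no Gcgr value of alpha cells alone was taken. The tumor counts are therefore no check of the tumor genotype apart from cell type. Each tumor library and the alpha cells of both islet libraries held UMIs of the 8 markers of alpha cells, with Gcg, which encodes glucagon, between 284170 and 364264 UMIs per 1000000. The cell types are those the authors deposited. Their own markers led the summed marker levels of the endocrine types except in heterozygous delta cells, whose delta markers summed to 154301 per 1000000 beside 162455 for beta markers. In endothelial, stellate and macrophage cells their own markers led those of the other 2 of these types, while summed beta or alpha markers, led by the hormones, ranged from 5216 to 66059 per 1000000. All intervals below are 95% intervals for counting error only, since cells of 1 library are not replicates.

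Chga was the most abundant granin transcript in every endocrine group, and each endocrine cell type had its own mixture of the other 4. Levels are UMIs per 1000000 UMIs of the group (CPM); each UMI is 1 captured transcript end, so levels of different genes can be set side by side. In tumor A, B and C Chga stood at 9685, 5805 and 5296 CPM. In homozygous islets it stood at 4434 CPM in alpha, 6658 in beta, 4065 in delta and 2139 in PP cells (pancreatic polypeptide cells, named in that library only). In heterozygous islets it stood at 6851 CPM in alpha, 4674 in beta and 5328 in delta cells. Tumor A was the highest and homozygous PP cells the lowest; neighbours in this order were separated by their counting intervals except heterozygous delta cells and tumor C.

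**Figure D1:**
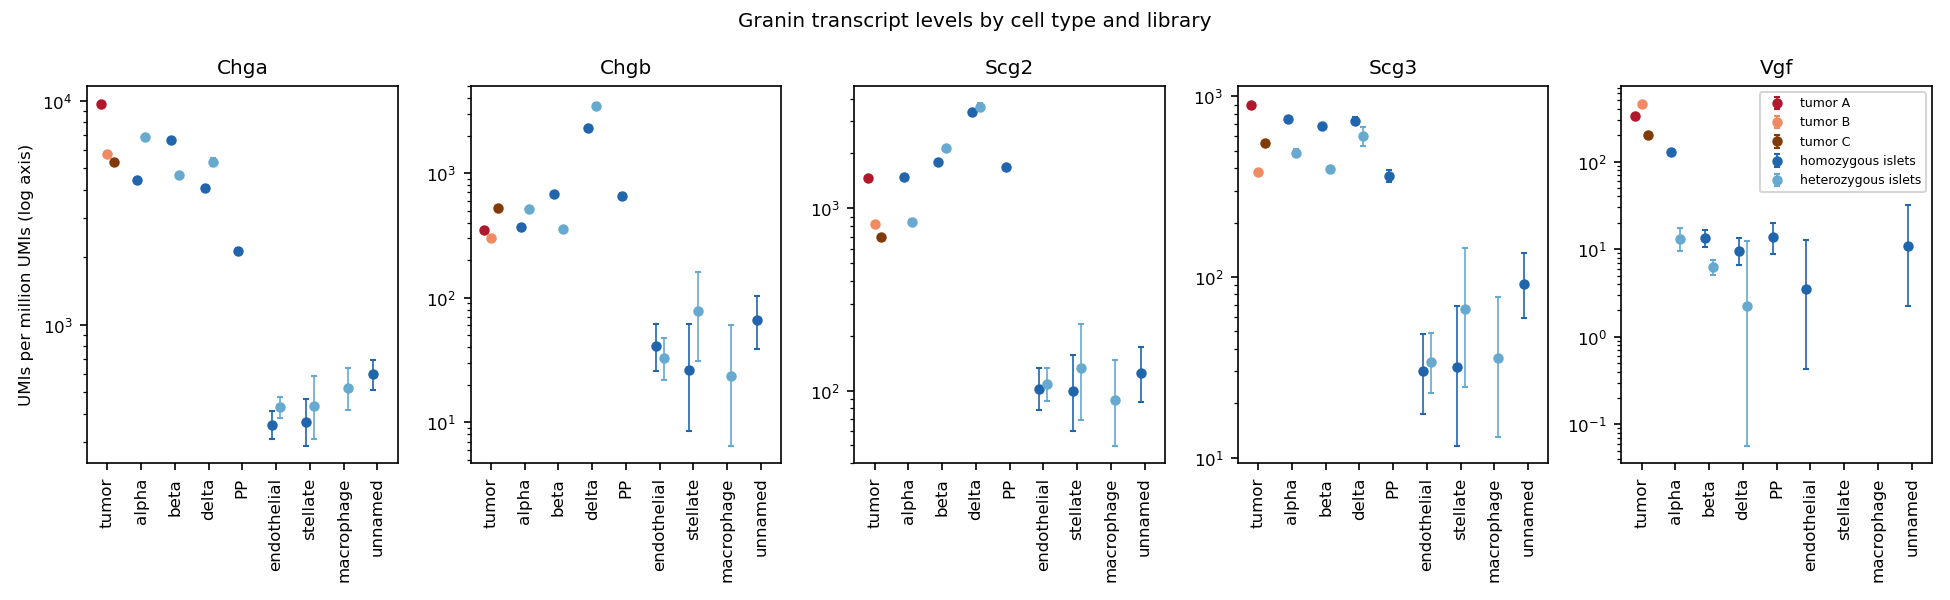
Granin CPM (log axis) by cell type, 1 panel per gene; points are 1 library's cells of a type, bars the exact 95% Poisson interval, and groups with 0 UMIs are not drawn. Delta cells lead for Chgb and Scg2, and tumor and homozygous alpha cells for Vgf, with tumor B at 457 and homozygous alpha cells at 129.

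Chgb was highest in delta cells, the somatostatin-producing cells. It reached 2300 CPM (2249 to 2351) in homozygous and 3467 CPM (3296 to 3643) in heterozygous delta cells. No other endocrine group passed the 677 CPM of homozygous beta cells, and tumor B was the lowest at 302 CPM. Tumor A stood at 352 and tumor C at 527 CPM, beside 371 CPM in homozygous and 512 CPM in heterozygous alpha cells.

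Scg2 had the same leaders, with 3356 CPM in homozygous and 3596 CPM in heterozygous delta cells. Beta cells followed, at 1801 CPM in homozygous and 2135 CPM in heterozygous islets. At the lower end lay tumor C with 693 CPM and tumor B with 824 CPM, whose interval overlapped that of heterozygous alpha cells (840.2 CPM). Tumor A (1470.1 CPM) and homozygous alpha cells (1494 CPM) also overlapped.

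Scg3 varied least between endocrine groups, between 362 CPM in homozygous PP cells and 899 CPM in tumor A. Tumor B (383 CPM) overlapped heterozygous beta cells (395 CPM) and the PP cells. Tumor C held 550.1 CPM.

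Vgf was highest in the tumors and the alpha cells of receptor-null islets. It stood at 334, 457 and 202 CPM in tumor A, B and C and at 129 CPM (124 to 134) in homozygous alpha cells, against 13.1 CPM (9.41 to 17.7) in heterozygous alpha cells. The other islet endocrine groups lay between 2.23 CPM, from a single UMI in heterozygous delta cells, and 13.6 CPM in homozygous PP cells, and each overlapped its neighbour in the order. The 6 groups of endothelial, stellate, macrophage and unnamed islet cells held at most 3 Vgf UMIs each (up to 10.97 CPM), and 4 of the 6 held none. In the heterozygous library the endothelial cells held 0 Vgf UMIs, which allows up to 4.32 CPM, below the intervals of the alpha cells and of the beta cells (6.25 CPM, 5.13 to 7.55).

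Granin UMIs were also found in those non-endocrine cells. Droplet libraries can pick up free RNA, and its part in these UMIs was not tested. Chga there lay between 357 and 599.7 CPM, so the lowest endocrine group was 3.57-fold above the highest of them. The same comparison gave 3.88-fold for Chgb, 5.20-fold for Scg2 and 3.96-fold for Scg3. For Vgf it gave 0.203. The highest non-endocrine Chgb and Scg2 levels were those of the 33 heterozygous stellate cells. Of these cells, 1 lay in cluster 1.2, that of the alpha cells, with Chgb and Scg2 each at 0.0871% of its UMIs. In the 32 stellate cells of cluster 1.6 they made up 0.00462% and 0.0104%. After thinning each cell to 5000 UMIs, Chga was seen in 100% of cells of every endocrine group and also in 83.6% of 67 heterozygous endothelial cells, so the share of cells with a Chga UMI carries little information.

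The share of cells with a Vgf UMI did separate the groups. Among cells thinned to 5000 UMIs, 68.1% of 479 cells in tumor A, 85.0% of 842 in tumor B and 58.7% of 1068 in tumor C had 1 or more. In alpha cells it was 39.9% (37.3 to 42.5) of 1427 homozygous cells and 8.11% (5.09 to 12.1) of 259 heterozygous cells. Endothelial cells had 0 of 17 in homozygous islets and 0 of 67 in heterozygous islets; the exact upper bounds are 19.5% and 5.36%. Before thinning, median depths were 14086 UMIs in homozygous alpha cells, 10002.5 in heterozygous alpha cells, 2061 in homozygous endothelial cells and 3587 in heterozygous endothelial cells.

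As a share of all granin UMIs, Chga made up 76.0%, 74.7% and 72.9% in tumor A, B and C, 61.8% in homozygous alpha cells and 78.7% in heterozygous alpha cells. In delta cells it made up 38.8% in homozygous and 41.0% in heterozygous islets. Scg2 took 20.8% of granin UMIs in homozygous alpha cells and 9.65% in heterozygous ones, beside 9.53% to 11.5% in the tumors. Vgf took 2.62%, 5.88% and 2.78% in the tumors, 1.79% in homozygous alpha cells and 0.15% in heterozygous alpha cells. The summed level of the 5 genes was 12741, 7771 and 7268 CPM in tumor A, B and C, 7176 CPM in homozygous and 8705 CPM in heterozygous alpha cells.

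Within the homozygous alpha cells the granins divided between the authors' clusters 2.1 (947 cells) and 2.2 (563 cells). Cluster 2.1 carried more of Slc38a5, an amino acid transporter that marks a proliferative alpha cell state (1087 CPM, against 195 CPM in cluster 2.2), and cluster 2.2 more of the pancreatic polypeptide transcript Ppy (28703 CPM in 2.1, against 158940.0 CPM in 2.2). Vgf stood at 175 CPM in cluster 2.1 and 46.9 CPM in cluster 2.2, a ratio of 3.72 (3.34 to 4.17). Scg3 stood at 884 CPM in 2.1 and 504 CPM in 2.2, a ratio of 1.75 (1.69 to 1.82). Scg2 went the other way, with 1285 CPM in 2.1 and 1864 CPM in 2.2, a ratio of 0.689 (0.674 to 0.704). Chga (ratio 1.15) and Chgb (ratio 0.835) differed less. The clusters were made from these cells, so these ratios are descriptions with no test.

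The median cell of cluster 2.1 had a Vgf level of 128 CPM, while the median cell of cluster 2.2 and of the heterozygous alpha cluster 1.2 (304 cells) had none. The middle 50% of cells in cluster 2.1 lay between 43.7 and 258 CPM. In tumor B, whose median cell had 418, the middle 50% lay between 277 and 583.

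Tumor C also divided, into cluster 4 (385 cells) and cluster 2 (697 cells). Chga stood at 7110 CPM in cluster 4 and 4192 CPM in cluster 2, Scg2 at 959.7 and 530.1 CPM, and Scg3 at 705 and 455 CPM in the same order, which are ratios of 1.70, 1.81 and 1.55. Chgb was lower in cluster 4, at 320.0 CPM, against 653 CPM in cluster 2, a ratio of 0.490 (0.469 to 0.512). The cluster 2 level of Chgb came with a wide spread over cells: the median cell had 494 CPM and the cell at the 95th percentile had 1623. Both clusters come from 1 library, so whether another tumor would divide this way was not tested. The 8 beta markers summed to 3334 CPM in tumor C, beside 7.24 CPM in tumor A and 138 CPM in tumor B. The part of beta cell transcripts in the tumor C values was not tested.

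**Figure D2:**
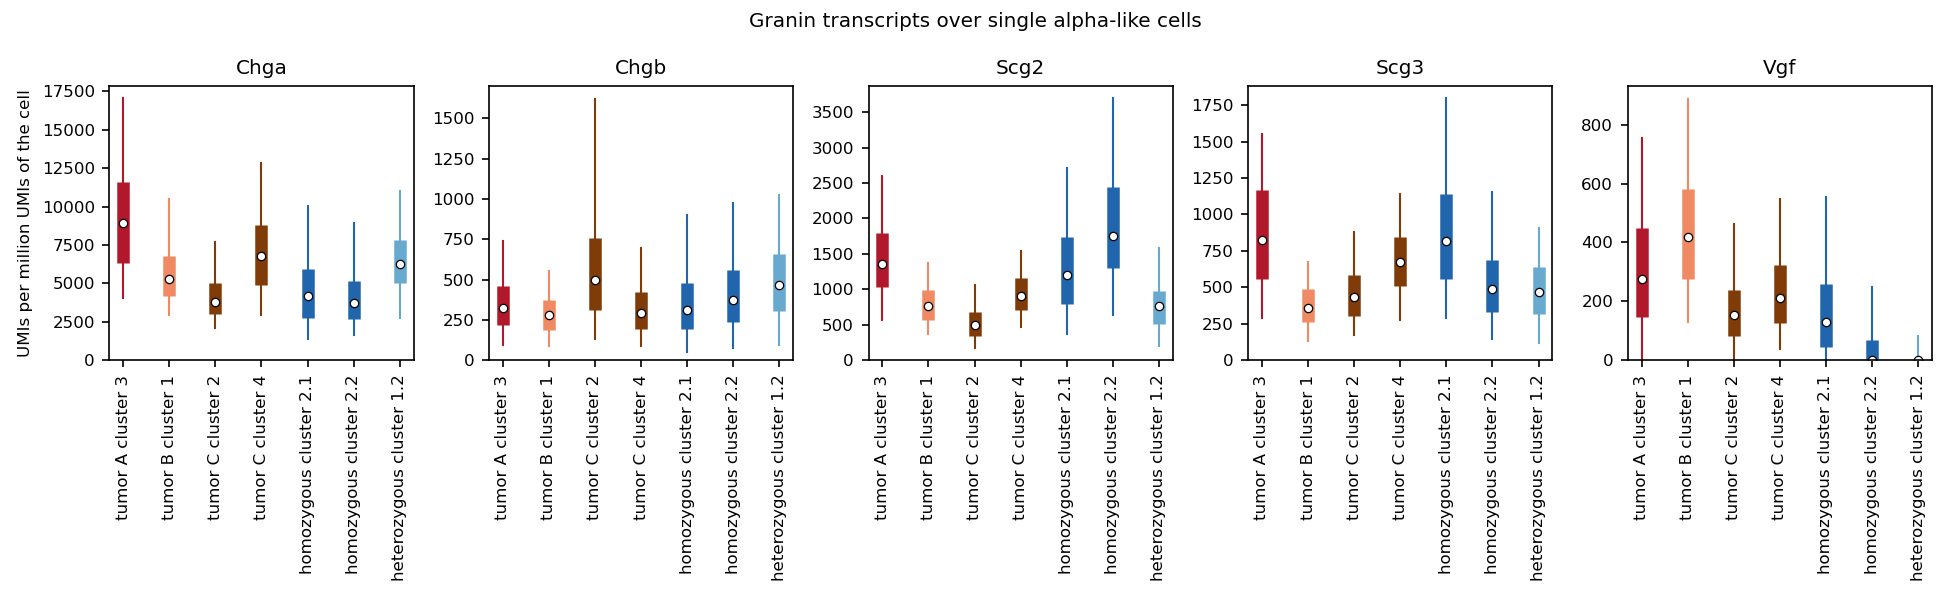
Granin CPM of each cell in the main alpha and tumor clusters; the white point is the median cell, the thick bar the middle 50% of cells and the thin line the 5th to 95th percentile. Vgf is at 0 in the median cell of homozygous cluster 2.2 and heterozygous cluster 1.2 and at 128 or more in the median cell of the other 5 clusters.

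No granin passed the test of tumor against islet alpha cells, although Vgf had the largest change of the 5. The comparison set the 3 tumor libraries against the alpha cells of the 2 islet libraries, using the mean CPM over cells per library on the log2(CPM + 1) scale and limma with Benjamini-Hochberg adjustment over 10233 genes. Of those genes 2.08% were called higher and 0.137% lower in tumors (213 and 14 genes). The islet side mixes the 2 genotypes.

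Vgf averaged 325, 465 and 207 CPM over the cells of tumor A, B and C, against 134 CPM in homozygous and 10.6 CPM in heterozygous alpha cells. All tumor libraries lay above both islet libraries, which was also true of 33.7% of the genes tested. The log2 change was 3.00 ± 0.87 (SE; limma adjusted p = 0.112, unadjusted p = 0.0088); 21.4% of all genes and 1 granin, Vgf, had an unadjusted p under 0.05. It depended on the islet library used: with the homozygous islets left out it was 4.77 (limma adjusted p = 0.0300), and with the heterozygous islets left out 1.23 (limma adjusted p = 0.220). With 1 islet library left, that library is assumed to vary as the tumors do.

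Chga averaged 9738, 5937 and 5415 CPM over the cells of tumor A, B and C, against 4653 CPM in homozygous and 6727 CPM in heterozygous alpha cells. Tumor A was the only tumor library above both islet libraries, and the groups overlapped. The log2 change of 0.28 ± 0.43 (SE; limma adjusted p = 0.754) turned to -0.02 with TMM scaling and to -0.04 with hormone transcripts left out of the totals. The median change of all genes was 0.25 as reported, -0.04 with TMM and -0.06 without the hormones.

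Scg2 averaged 1525, 830.4 and 699.5 CPM in tumor A, B and C, against 1615 CPM in homozygous and 853 CPM in heterozygous alpha cells. Tumors B and C lay below both islet libraries and tumor A between them. Scg3 averaged 905, 389 and 563 CPM in tumor A, B and C, against 786 CPM in homozygous and 506 CPM in heterozygous alpha cells. Its tumor libraries fell on both sides of the islet values. Chgb averaged 369, 305 and 545 CPM in tumor A, B and C, against 405 CPM in homozygous and 514 CPM in heterozygous alpha cells, and again the groups overlapped. Log2 changes were -0.29 ± 0.44 for Scg2, -0.11 ± 0.41 for Scg3 and -0.21 ± 0.32 for Chgb (SE; limma adjusted p = 0.748, 0.903 and 0.754). The standard errors leave room for a change of either direction in these 3 genes.

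**Figure D3:**
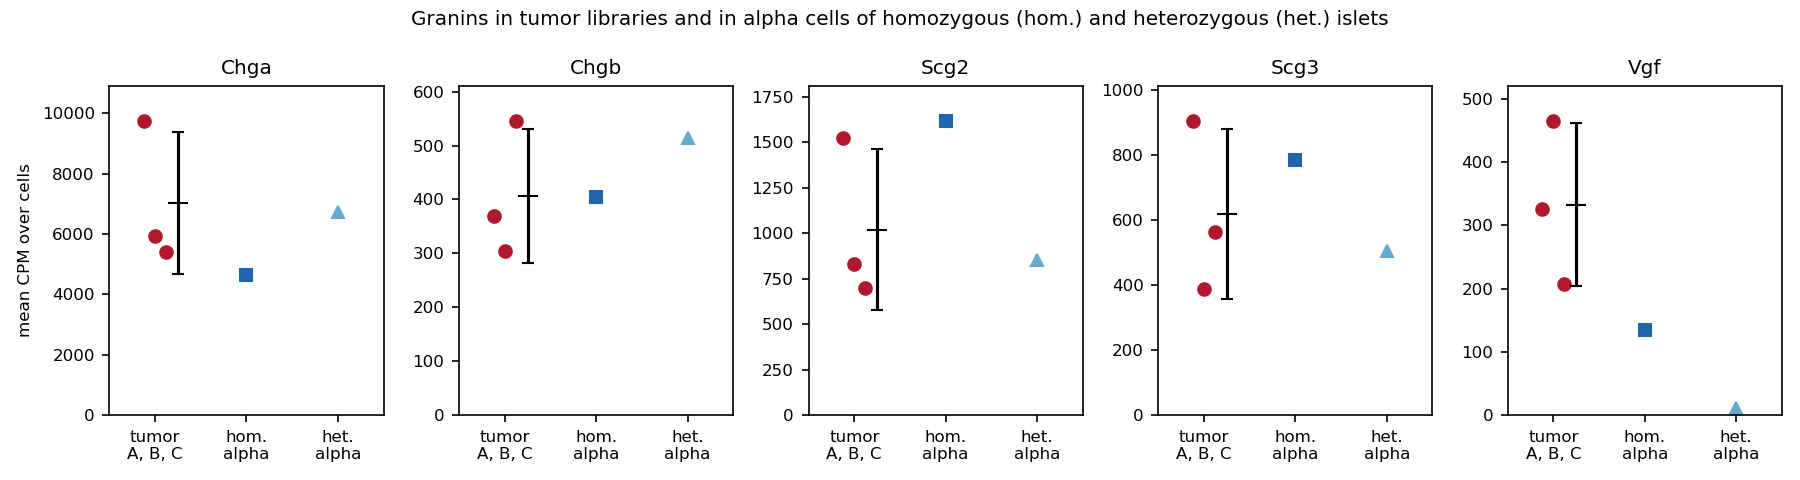
Mean CPM over cells of each granin in the 3 tumor libraries (circles, with their mean and SD beside them, n = 3), homozygous islet alpha cells (square, n = 1) and heterozygous islet alpha cells (triangle, n = 1). Vgf is the panel in which all tumor libraries, from 207 to 465, lie above both islet values.

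Alpha cells of the 2 islet genotypes differed most in Vgf, with Scg2 and Scg3 higher and Chga and Chgb lower in the homozygous library. There is 1 library per genotype, so the difference has no replicate check and no test; ratios carry exact 95% intervals for counting error, and library and genotype cannot be told apart. Vgf had 2853 UMIs in 1525 homozygous alpha cells, against 42 UMIs in 306 heterozygous alpha cells, a ratio of 9.86 (7.27 to 13.7). It was the 1 granin past 2-fold on the CPM scale; set against the median ratio of all genes Scg2 passed it too, with a log2 ratio of 1.05. Of the 1952 genes with 50 CPM or more, 2.66% were higher by 2-fold or more and 11.6% past it in either direction (52 higher and 174 lower). The ratio was 1.78 (1.71 to 1.85) for Scg2 and 1.53 (1.45 to 1.61) for Scg3. It was 0.647 (0.638 to 0.657) for Chga and 0.725 (0.687 to 0.765) for Chgb, beside a median log2 ratio of -0.22 over all genes. Markers of other islet cell types differed between these alpha cells as well: the 8 beta markers summed to 11506 CPM in homozygous and 55582 CPM in heterozygous alpha cells, and Ppy stood at 76625 CPM in homozygous and 16006 CPM in heterozygous ones. Their part in the granin ratios was not tested. Within homozygous cluster 2.2 alone the log2 ratio to heterozygous alpha cells was 0.05 for Scg3 and 1.84 for Vgf; within cluster 2.1 alone it was 0.85 and 3.74.

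In beta cells, the insulin-producing cells, the pattern was another one. Chga stood at 6658 CPM in 461 homozygous cells, against 4674 CPM in 686 heterozygous cells, a ratio of 1.42 (1.41 to 1.44). Chgb had a ratio of 1.92 (1.84 to 2.00) and Scg3 of 1.73 (1.66 to 1.799), while Scg2 had 0.843 (0.825 to 0.862). None of the 4 reached 2-fold, as 5.84% of the 1199 genes with 50 CPM or more did. Vgf had 75 UMIs in homozygous and 108 UMIs in heterozygous beta cells (13.4 and 6.25 CPM, a ratio of 2.14 with an interval of 1.57 to 2.89), beside up to 10.97 CPM in the non-endocrine groups, and was under the 50 CPM minimum. The alpha cell transcript Gcg moved with these values, at 18842 CPM in homozygous and 5214 CPM in heterozygous beta cells, and its part in the result was not tested.

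A small group of homozygous beta cells, cluster 2.7 with 27 cells, carried a large part of the Chga and Chgb difference. Its cells held 22662 CPM of Chga and 3333 CPM of Chgb, against 5739 and 525 CPM in the 432 cells of cluster 2.4. Of the 8 beta markers, 5 were lower in cluster 2.7, among them Ins1 (47907 CPM, against 203029 CPM in cluster 2.4), while Iapp (90499 CPM, against 46087 CPM) and Nkx6-1 (95.03 CPM, against 54.1 CPM) were higher and Mafa had no UMI in either cluster. The cells also held more Ppy (196526 CPM, against 37249 CPM). Without cluster 2.7, an alternative chosen after seeing the data, the log2 ratio of homozygous to heterozygous beta cells fell to 0.31 for Chga, against 0.51 with it, and to 0.60 for Chgb, against 0.94 with it. Scg3 stood at 0.71 without the cluster and 0.79 with it.

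In delta cells (332 homozygous and 62 heterozygous) the ratio was 0.663 (0.628 to 0.701) for Chgb, 0.763 (0.731 to 0.797) for Chga, 0.933 (0.886 to 0.984) for Scg2 and 1.22 (1.07 to 1.38) for Scg3. All genes together shifted by a median log2 ratio of -0.42 in these cells, and 15.7% of 2529 genes passed 2-fold. Set against that median, the log2 ratio was 0.03 for Chga, 0.32 for Scg2, 0.71 for Scg3 and -0.17 for Chgb, so the directions of Chga and Scg2 in delta cells depend on the scaling. Vgf had 33 UMIs in homozygous and 1 UMI in heterozygous delta cells, a ratio of 4.29 with an interval of 0.718 to 174. In endothelial cells (214 homozygous and 195 heterozygous) the Chga ratio was 0.835 (0.700 to 0.994), and the intervals of Chgb, Scg2 and Scg3 included 1. Of 4286 genes in these cells 6.46% passed 2-fold.

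**Figure D4:**
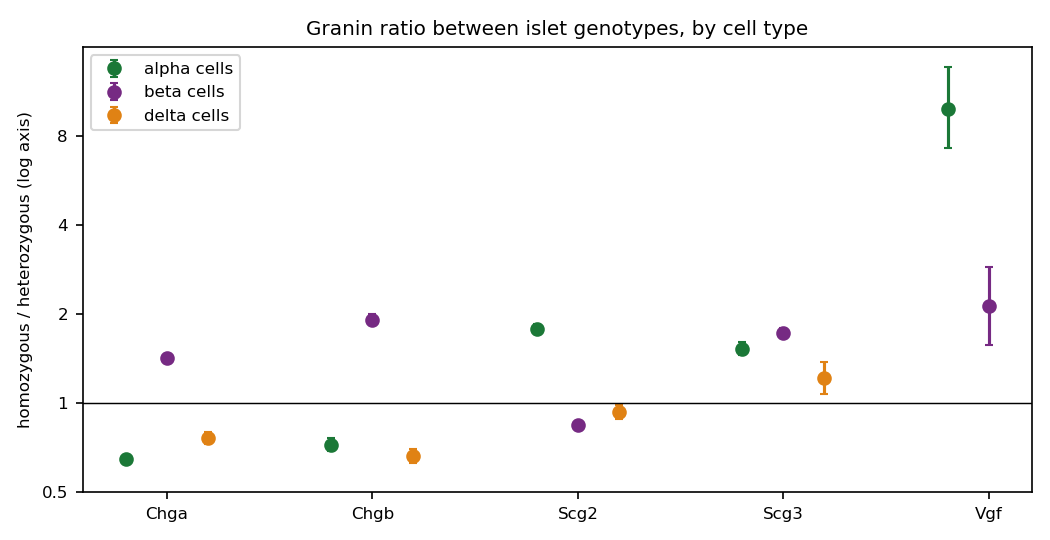
Ratio of homozygous to heterozygous CPM (log axis) for each granin in alpha, beta and delta cells, with exact 95% intervals for counting error; Vgf in delta cells is left out because the heterozygous cells held 1 UMI. Chga and Chgb lie below 1 in alpha cells (0.647 and 0.725) and above 1 in beta cells (1.42 and 1.92), and Scg2 the reverse (1.78 and 0.843).

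Slc38a5 is known to be induced in mouse alpha cells when glucagon signaling is lost, and cells with and without its transcript were compared within each library. After thinning to 5000 UMIs per cell, there were 424 positive and 55 negative cells in tumor A, 814 and 28 in tumor B, 1033 and 35 in tumor C, 981 and 446 in homozygous islets and 65 and 194 in heterozygous islets. No granin passed limma's threshold over 11076 genes with library as a block, where 0.135% of genes were called higher and 0.0181% lower in positive cells (15 and 2 genes). At an unadjusted p under 0.05, 3 of the 5 granins and 13.6% of all genes stood out. The classes were not matched for cluster or for depth. Positive cells had the higher median depth before thinning in all 5 libraries. The gap was smallest in homozygous islets (14989 against 14255.5 UMIs) and largest in tumor A (20791 against 16022 UMIs). The part of depth in the class differences was not tested. Slc38a5 stood at 1087 CPM in homozygous cluster 2.1 and 195 CPM in cluster 2.2. In tumor C it stood at 1358 CPM in cluster 4 and 1781 CPM in cluster 2. The class differences are therefore not separate from the cluster differences above, and the part of the clusters in them was not tested.

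Vgf averaged 351 CPM in positive and 149 CPM in negative cells of tumor A, 469.9 and 288 CPM in tumor B, 206 and 236 CPM in tumor C, 165 and 67.6 CPM in homozygous islets, and 12.9 and 12.4 CPM in heterozygous islets. Positive cells were higher in 4 of 5 libraries and lower in tumor C. The log2 change was 0.61 ± 0.18 (SE; limma adjusted p = 0.167). Split without thinning it was 1.27 (limma adjusted p = 7.4e-05), but that rule left only the 2 islet libraries with 20 cells in each class. Positive cells were the deeper ones under both rules. The gap was wider without thinning, for example 12446 against 8597 UMIs in heterozygous islets, beside 12446 against 10494 with it. The edgeR quasi-likelihood test gave 0.67 (edgeR adjusted p = 0.0395).

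Scg2 was lower in positive cells of all 5 libraries: 1489 against 1751 CPM in tumor A, 829.5 against 888 CPM in tumor B, 689 against 987 CPM in tumor C, 1423 against 1926 CPM in homozygous islets, and 829.4 against 837 CPM in heterozygous islets. The gap in heterozygous islets was the smallest, -0.01 on the log2 scale, and that in tumor C the largest, -0.52. The log2 change was -0.26 ± 0.08 (SE; limma adjusted p = 0.192), and DESeq2 gave -0.36 (DESeq2 adjusted p = 0.0150). Scg3 changed by 0.32 ± 0.10 (SE; limma adjusted p = 0.178), higher in positive cells of 4 of 5 libraries and lower in tumor C. Chga (0.17 ± 0.10, limma adjusted p = 0.464) was higher in 4 of 5, again not in tumor C. Chgb (0.02 ± 0.10, limma adjusted p = 0.941) was higher in 2 and lower in 3. All genes together had a median log2 change of 0.14 in this fit. Set against that median, the log2 change was 0.02 for Chga, 0.17 for Scg3, 0.47 for Vgf, -0.40 for Scg2 and -0.13 for Chgb.

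**Figure D5:**
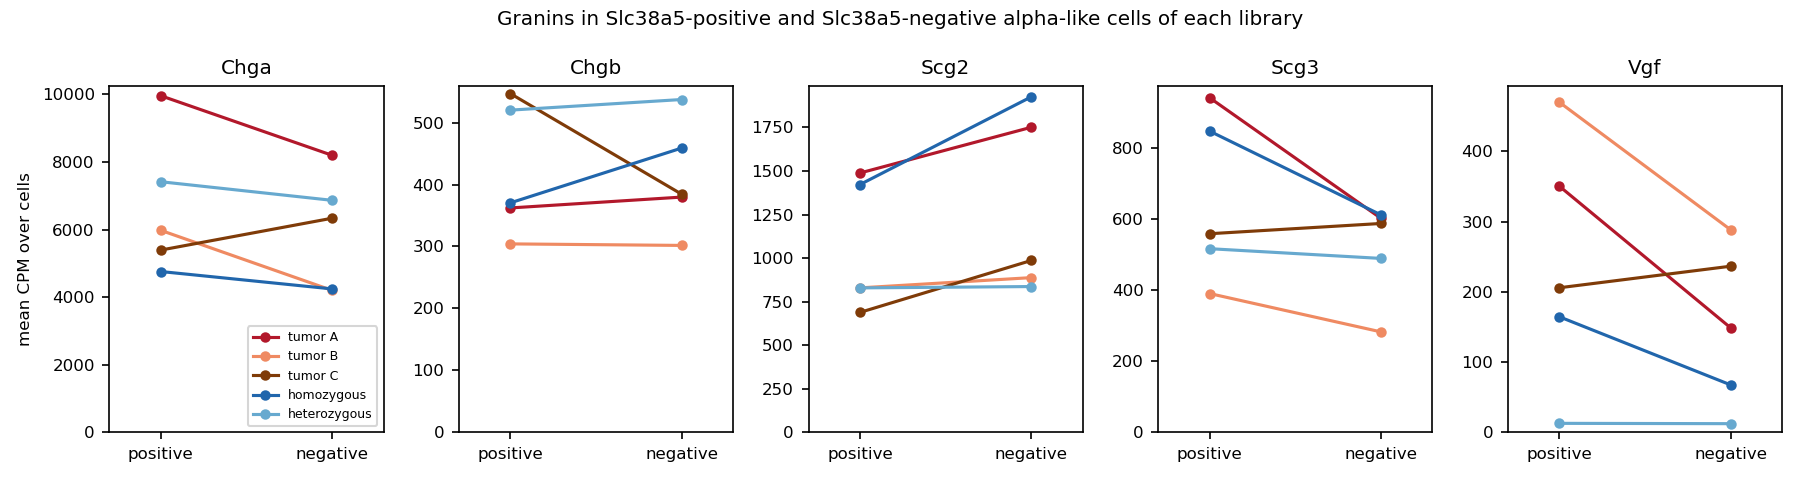
Mean CPM over cells of each granin in Slc38a5-positive (left) and Slc38a5-negative (right) alpha-like cells, 1 line per library. Scg2 is lower in positive cells of all 5 libraries, and Vgf is higher in 4 of 5, with tumor C the exception at 206 in positive and 236 in negative cells.

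Whether these differences were larger in tumors than in islets was tested as an interaction. No gene of 11076 passed the limma threshold (0%), and 441 genes (3.98%) but no granin had an unadjusted p under 0.05. The interaction of Vgf was -0.08 ± 0.37 on the log2 scale (SE; limma adjusted p = 0.987).

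The genes that work beside the granins were taken as 3 lists. Among 10 tested genes of granin relatives and prohormone processing, none changed between tumors and islet alpha cells by limma at the adjusted threshold, and none had an unadjusted p under 0.05; their median log2 change was -0.21, beside 0.25 for all genes. Among 10 tested genes of the granule membrane and its formation none passed limma either, 2 had an unadjusted p under 0.05 (21.4% of all genes did), and the median was 0.31. Of 14 tested genes of granule docking and exocytosis 1 rose and 1 fell (2.08% and 0.137% of all genes did), 2 had an unadjusted p under 0.05, and the median was 0.29. Syt4, a synaptotagmin of dense-core vesicles, averaged 119, 130 and 136 CPM in tumor A, B and C, against 49.5 CPM in homozygous and 59.4 CPM in heterozygous alpha cells, and rose by 1.22 ± 0.23 (log2, SE; limma adjusted p = 0.0430). Rab3a, a small GTPase of vesicle docking, averaged 21.5, 32.6 and 27.7 CPM in tumor A, B and C, against 60.6 CPM in homozygous and 90.9 CPM in heterozygous alpha cells, and fell by 1.43 ± 0.29 on the log2 scale (SE; limma adjusted p = 0.0486). Both kept their direction in all 14 alternatives, but Syt4 lost the call in 9 of them and Rab3a in 10, among them every fit with 1 library left out (limma adjusted p between 0.0897 and 0.124 for Syt4 and between 0.0677 and 0.154 for Rab3a).

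Between Slc38a5-positive and negative cells, 1 of the 10 processing genes passed. Gnas, which encodes the stimulatory G protein alpha subunit and, from another promoter, a granin-like protein of neuroendocrine granules, rose by 0.58 ± 0.09 (log2, SE; limma adjusted p = 0.0304) and was higher in positive cells of 5 of 5 libraries. It kept its direction in all 15 alternatives and lost the call in 9; without the homozygous islets, tumor A, tumor B or tumor C its limma adjusted p was 0.0909, 0.284, 0.191 and 0.0743, and without the heterozygous islets 0.00066. The 3′ tags used here cannot tell these transcripts apart. The processing list had a median log2 change of 0.07, the membrane list 0.18 and the docking list 0.09, beside 0.14 for all genes. No gene of the membrane and docking lists passed limma. An unadjusted p under 0.05 was found for 5 of the 10 processing genes, 2 of the 10 membrane genes and 3 of the 14 docking genes, beside 13.6% of all genes. The 5 processing genes were Gnas, Scg5, Pcsk1n, Resp18 and Cpe. Scg5, which encodes the convertase chaperone 7B2, had a log2 change of -0.38 ± 0.08 (SE; limma adjusted p = 0.0693). For Pcsk1n, which encodes the granin-like inhibitor proSAAS, it was -0.43 ± 0.08 (SE; limma adjusted p = 0.0646). Resp18 had -0.47 ± 0.11 (SE, limma adjusted p = 0.101) and Cpe 0.20 ± 0.07 (SE, limma adjusted p = 0.233). Scg5, Pcsk1n and Resp18 were lower and Cpe was higher in positive cells of 5 of 5 libraries. None of these passed at the adjusted threshold.

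Between the islet genotypes 2 processing genes were lower by 2-fold or more in homozygous alpha cells, out of 7 with 50 CPM or more, where 174 of all 1952 genes were lower by that margin. Pcsk1n stood at 2853 CPM in homozygous and 8508 CPM in heterozygous alpha cells, a ratio of 0.335 (0.331 to 0.340). Pcsk2, the convertase that cuts proglucagon to glucagon, stood at 2738 CPM in homozygous and 6141 CPM in heterozygous alpha cells, a ratio of 0.446 (0.439 to 0.453). Of 9 docking genes, Cadps (ratio 0.241), a priming factor of dense-core granules, and Cplx2 (ratio 0.383), a complexin, were lower by that margin. None of the 5 membrane genes was. In beta cells, of the 3 lists only the docking gene Sytl4 (granuphilin) passed 2-fold, with a ratio of 0.456, where 5.84% of all genes did. In delta cells Cplx2 (0.475) and the zinc transporter Slc30a8 (0.191) did, beside 15.7% of all genes. The 8 beta markers summed to 64144 CPM in homozygous and 162455 CPM in heterozygous delta cells, and Slc30a8 stood at 203 CPM in homozygous and 256 CPM in heterozygous beta cells; the part of beta cell transcripts in the delta ratios was not tested. In endothelial cells Gnas was 2.62-fold higher in the homozygous library, where 6.46% of all genes passed 2-fold either way. The 8 alpha markers summed to 18167 CPM in homozygous and 5216 CPM in heterozygous endothelial cells. Summed beta markers went the other way, at 8166 CPM in homozygous and 47842 CPM in heterozygous ones. The part of alpha cell transcripts in the Gnas ratio was not tested. Set against the median ratio of all genes, Pcsk2 in alpha cells (log2 ratio -0.94) and Cplx2 in delta cells (-0.65) fell short of 2-fold, while Syt4 in delta cells passed it (1.01).

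The genes with the most similar pattern to each granin were sought over 16 groups of cells (islet cell types of 1 library with 20 cells or more, and the tumor libraries) among 6583 genes, by Pearson correlation of log2(CPM + 1). The groups share libraries, depth and free RNA, so the values are descriptions. Camk2b, Pcsk2 and 1700023F06Rik were likest to Chga (r = 0.97 each). Golga7b, Scg2 and Atp1b1 were likest to Chgb (0.95 each), and Atp1b1 (0.96), Chgb (0.95) and Smpd3 (0.94) to Scg2. For Scg3 they were Snap25 (0.97), a component of the fusion complex, Chga (0.97) and Camk2b (0.96). Vgf had other neighbours, Dapl1 (0.95), Slc38a5 (0.92) and Ttr (0.92), and correlated at 0.46 with Chgb, 0.52 with Scg2, 0.72 with Scg3 and 0.73 with Chga.

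Over the 10 endocrine groups alone, the correlations between granins were lower: 0.73 between Chgb and Scg2 and 0.51 between Chga and Scg3. Vgf correlated at -0.70 with Scg2 and -0.67 with Chgb, and Chga at -0.22 with Chgb and -0.26 with Scg2. The likest genes over the endocrine groups were all others than those above. For Vgf they were Cd2 (0.98), Ahnak2 (0.97) and Lamp2 (0.97), and for Chga Taok2 (0.95), Tbc1d16 (0.93) and Tnrc18 (0.93). For Chgb they were Prss23 (0.98), Cd302 (0.98) and Hhex (0.97). Slitrk6 (0.91), Tcn2 (0.90) and Tspan33 (0.90) were likest to Scg2, and Fnbp1l (0.85), Tmem50b (0.84) and Naa60 (0.82) to Scg3. From cell to cell within a library, the highest granin correlation was 0.54, between Chga and Chgb in homozygous beta cells, where cluster 2.7 is high in both; in tumor C the same genes had -0.04.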

How the data were processed

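The authors deposited normalized UMI signals, with cells in 3 tables. Per the file headers each value is the cell's UMIs divided by its total and multiplied by a constant. The constant was estimated from the values as 9936 in the islet tables and 12219 in the tumor table, whose header names exonic UMIs. The cell totals are counts, per the file headers. The submitters' processing notes name CASAVA 1.8, bcl2fastq 2.17, GSNAP and GRCm38. Multiplying back gave whole UMIs for 100% of values within 0.01; recovered sums were 1.01 to 1.03 times the totals (medians). On those UMIs the edgeR count test called 17 genes as higher and 1 as lower for tumors; for Slc38a5-positive cells these were 45 and 46.

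Scrublet removed 18, 9 and 15 doublets from tumor A, B and C, 1 from homozygous and 8 from heterozygous islets. All kept tumor cells and the alpha cells of both islet libraries were the alpha-like cells; the tumor libraries could not be tied to sample numbers. Tests used limma 3.58.1 (R 4.3.3) on log2(mean CPM + 1), which understates changes of low genes, for genes with 5 CPM in 2 libraries, at an adjusted p of 0.05; with so few libraries each gene's variance is drawn in part from all genes, and p-values measure only the spread between these libraries, which may be technical. edgeR 4.0.16 and DESeq2 1.42.0 were alternatives. The class comparison is paired by design, since both classes come from the same library; it left out Slc38a5 and required 20 cells per class. Genotype ratios used 50 CPM or more in 1 genotype and 50 cells in both, with exact 95% intervals. Where no UMI was seen, the exact interval set the upper limit. The fits were also run on simulated data in which the libraries shared a baseline level. The spread was fixed, at a smaller value for hormone transcripts and Ttr than for all other genes, and the most abundant genes were given no change. That simulation does not cover an islet side of mixed genotypes or shifts of abundant transcripts between libraries. The named genes were the 5 granins, up to 4 per list and comparison past the threshold (2-fold for ratios), the 3 likest genes per granin, and Gcgr, Gcg and Slc38a5. Scg5, Pcsk1n, Resp18 and Cpe in the Slc38a5 classes were named outside this rule, at an unadjusted p under 0.05. Ins1 and Ppy in clusters were named after their values were seen. The members and lists were chosen with earlier results of these data known. 1 list gene (Ccdc186) was not found. Protein sequences were not used here.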

Additional observations from a re-analysis of the deposited data

Results flagged for a closer look

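Chga, Chgb and Scg2 stood out because homozygous and heterozygous cells differed in opposite directions in different cell types, with counting intervals on opposite sides of 1. The homozygous to heterozygous ratio of Chga was 0.647 in alpha, 1.42 in beta and 0.763 in delta cells. For Chgb it was 0.725 in alpha, 1.92 in beta and 0.663 in delta cells. For Scg2 it was 1.78 in alpha, 0.843 in beta and 0.933 in delta cells. The difference between cell types was not tested, since each genotype has 1 library. In delta cells the direction of Scg2 turned with hormone transcripts left out of the totals (log2 ratio 0.27), while that of Chga stayed at -0.02; set against the median of all genes both turned, to 0.32 for Scg2 and 0.03 for Chga. In alpha and beta cells all 3 genes kept their direction under the alternatives run.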

How the results depend on the processing

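No granin passed the threshold in tumors against islet alpha cells under any alternative but 1: without the homozygous islet library 1 granin (Vgf) was called. The other leave-one-out fits called 0. In Slc38a5-positive against negative cells 1 granin was called without thinning (Vgf), 1 by edgeR (Vgf) and 1 by DESeq2 (Scg2), and 0 when any single library was left out. Without the replicate block, which ignores the pairing of classes within a library, 0 granins and 0 genes were called and the log2 change of Vgf was still 0.61 (limma adjusted p = 1.00). No paired analysis was possible for tumors against islets because no label ties a tumor library to an islet library.

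Directions that turned were those of small changes. In tumors Chga turned to -0.021 with TMM and -0.041 without hormone transcripts; Scg2 turned to 0.17 and Scg3 to 0.20 without the homozygous islet library, and Scg3 to 0.18 without tumor B. In positive cells Chgb turned to -0.11 without hormone transcripts, -0.23 without thinning, -0.040 by edgeR, -0.055 by DESeq2 and -0.10 without tumor C. With single libraries left out, the log2 change in tumors lay between -0.75 and 0.17 for Scg2 and between -0.43 and 0.20 for Scg3, and that of Chgb in positive cells between -0.10 and 0.10. The cause was not tested.

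Counts over all genes moved more than the granins. Genes higher in tumors numbered 19 with no filter on low values, 35 with TMM, 25 without hormones, 17 by edgeR and 400 by DESeq2, and between 13 and 143 with 1 library left out (13 without the heterozygous and 37 without the homozygous islets, 29 without tumor A, 143 without tumor B, 64 without tumor C). Genes lower in tumors numbered 1, 9, 5, 1 and 270 under the same settings, and between 0 and 23 with 1 library left out (0 without heterozygous islets and 23 without tumor C). Genes higher in positive cells numbered 1 with a pseudocount of 0.1, 35 with 10, 0 with no filter, 6 without hormones, 7 with a second thinning draw (chosen after seeing the data), 45 by edgeR and 23 by DESeq2, and between 1 and 91 with 1 library left out (91 without the heterozygous islets, 1 without tumor A). Genes lower numbered 1, 6, 0, 15, 4, 46 and 25 under these settings and 8 without thinning, and between 0 and 15 with 1 library left out (15 without the heterozygous islets).

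Genes past 2-fold between genotypes also depended on the scaling. Those higher in homozygous alpha cells numbered 139 without hormones, 87 against the median ratio, 81 in cluster 2.1 alone and 32 in cluster 2.2 alone; those lower numbered 102 against the median and 286 in cluster 2.2. In beta cells 47 were higher by the mean over cells and 107 without hormones, and 135 were lower without hormones. In delta cells 207 were higher without hormones, and against the median 102 were higher and 108 lower. The comparisons rest on 3 tumor libraries and 1 library per islet genotype, and Vgf outside tumors and homozygous alpha cells rests on at most 108 UMIs per group.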
